A study of Rattus norvegicus with 12 samples.

Results

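Crystallins were first known as the abundant soluble proteins of the eye lens. The genes described here are the 10 whose names in the deposited expression table are Cryaa, Cryab, Cryba1, Cryba2, Cryba4, Crybb1, Crybb2, Crybb3, Crygs and Crygn. They are 10 of the 30560 genes in the table, and all 10 had enough reads to be tested, among 16260 tested genes. The rule uses gene names and no measured value.

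The study measured RNA by sequencing in rat retina after an injection into the vitreous, the gel that lies between the lens and the retina. In the control group 6 rats (1 library each, PBS 1 to PBS 6) received 2 µL of phosphate-buffered saline, and the other 6 rats (NMDA 1 to NMDA 6) received 2 µL of 20 mM N-methyl-D-aspartate (NMDA), an agonist of one class of glutamate receptor that is toxic to retinal ganglion cells at high dose. The study called this a glaucoma model. Strain, age, sex, genotype, the time between injection and collection, and whether one or both eyes were taken are not given in the sources used here.

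The library totals ran from 16415611 to 34022023 reads. The tissue label was checked with 10 rod genes, whose summed level was at least 36687 CPM (read counts scaled to the size of the library) in each library. The rod sum was 52540 to 55670 CPM with PBS and 36687 to 53115 CPM with NMDA, where NMDA 1 was the highest. Of the 10 rod genes 7 fell, beside 17.5% of all tested genes. The 10 ganglion cell genes tested summed to 815 to 966 CPM in the PBS libraries and 209 to 561 CPM in the NMDA libraries, and 9 of the 10 fell. The library NMDA 1 was on the high side for its group in that sum, at 511 CPM against a group median of 275 CPM. It also held the lowest level of the lens genes described below, so the values that turn on it are also given without it.

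Vertebrate crystallins fall into families. The alpha crystallins Cryaa and Cryab are small heat shock proteins that hold unfolding proteins in solution, and Cryab is also made outside the lens, in muscle, heart and glia. The beta and gamma crystallins share a fold built from repeated Greek key motifs, are structural proteins of the lens fibre cell, and have been reported in retina as well. In retina, crystallin transcripts have been described both as part of a response to injury and as material from the nearby lens. In bulk tissue, a lower level cannot be told apart as fewer cells of a type or less RNA in each cell.

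RefSeq promoter sequences (assembly GRCr8) were found for 9 of the 10 genes. The 4 printed here were picked to show the gene with the highest level (Cryaa), the one with matches to all 3 motifs searched (Cryba1), a gamma crystallin (Crygs) and a beta crystallin with no match (Crybb2). Each is the 250 bases before the start of the gene, 5′ to 3′ on the gene's own strand, in lower case with motif matches in capitals. The motifs were the core of the Maf response element (TGCTGA, or TCAGCA on the other strand), the core of a heat shock element (GAANNTTC or TTCNNGAA, each the same on both strands) and a TATA box (TATAAA, or TTTATA).
Cryaa, chr20:9784661-9784910, plus strand: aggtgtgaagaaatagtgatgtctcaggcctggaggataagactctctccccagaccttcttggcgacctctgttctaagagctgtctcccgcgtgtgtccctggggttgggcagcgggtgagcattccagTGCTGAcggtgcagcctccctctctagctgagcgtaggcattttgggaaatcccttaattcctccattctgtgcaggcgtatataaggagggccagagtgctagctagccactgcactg
Cryba1, chr10:63112818-63113067, minus strand: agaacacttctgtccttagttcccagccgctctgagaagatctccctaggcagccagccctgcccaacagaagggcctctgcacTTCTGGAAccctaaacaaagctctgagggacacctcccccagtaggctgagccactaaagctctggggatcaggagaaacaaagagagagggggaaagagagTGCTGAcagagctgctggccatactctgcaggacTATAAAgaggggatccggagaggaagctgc
Crygs, chr11:91711505-91711754, plus strand: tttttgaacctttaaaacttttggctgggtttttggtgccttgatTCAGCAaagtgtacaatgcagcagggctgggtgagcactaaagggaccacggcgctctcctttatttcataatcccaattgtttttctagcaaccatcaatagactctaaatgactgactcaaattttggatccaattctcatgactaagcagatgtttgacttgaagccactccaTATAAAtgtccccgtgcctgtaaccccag
Crybb2, chr12:49229942-49230191, plus strand: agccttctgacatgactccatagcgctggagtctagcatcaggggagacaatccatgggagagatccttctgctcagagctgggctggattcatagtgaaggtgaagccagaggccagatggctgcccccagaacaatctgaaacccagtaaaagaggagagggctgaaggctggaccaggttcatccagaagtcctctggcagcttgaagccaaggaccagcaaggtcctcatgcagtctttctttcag

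The Maf core was matched in 5 of the 9 genes (Cryaa, Cryba1, Cryba2, Cryba4 and Crygs). Counted by promoter entry, it was matched in 6 of 10, against 15.1% of all 33469 promoters of this length. In the Cryaa sequence printed here it began 119 bases before the start, in Cryba1 64 bases before and in Crygs 205 bases before. Another Cryaa entry, with a later start, holds the same match 164 bases before that start. The TATA box was matched in 3 genes (Cryba1, Cryba2 and Crygs), 30 bases before the start in Cryba1 and 29 bases before in Crygs, and in 12.9% of all promoters. The heat shock core was matched only in Cryba1, 166 bases before the start, and in 13.5% of all promoters. A match describes letters in this window and is not a binding site, and a gene with no match may have the site elsewhere.

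None of the 10 crystallin genes passed the test for a change with NMDA. In the test over all genes (edgeR's quasi-likelihood test with Benjamini-Hochberg adjustment, called at an adjusted p under 0.05), 6167 of 16260 genes were called, which is 37.9% of them (20.4% higher and 17.5% lower), and 0 of the 10 crystallins. Without TMM scaling the split was 4233 higher and 2323 lower, against 3315 and 2852 with it. None of the 10 reached an unadjusted p under 0.05, which 7550 of all tested genes did, and DESeq2 called 0 of the 10 as well, against 40.4% of the genes it tested, and limma voom called 0 of the 10, against 43.7%. The groups did not overlap for 18.1% of all tested genes, and they overlapped for all 10 crystallins. The log2 fold changes, NMDA minus PBS, ran from −0.35 to 0.42 with a median of −0.01, 5 above and 5 below 0, beside a median of 0.01 over all tested genes. Leaving out NMDA 1 gave −0.11 (Cryba1) to 0.64 (Cryab), and 0 of the 10 were called, against 6629 of 16396 genes. Cryaa was then at 0.48, Crygn 0.40, Crybb2 0.33, Crybb3 0.31, Cryba2 0.16, Crybb1 0.010, Crygs 0.0055 and Cryba4 −0.020. With all 12 libraries the standard errors of the 10 were 0.53 to 0.78, against a median of 0.09 over all tested genes. The intervals given below are therefore wide, and a gene that was not called was not shown to be unchanged.

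**Figure D1:**
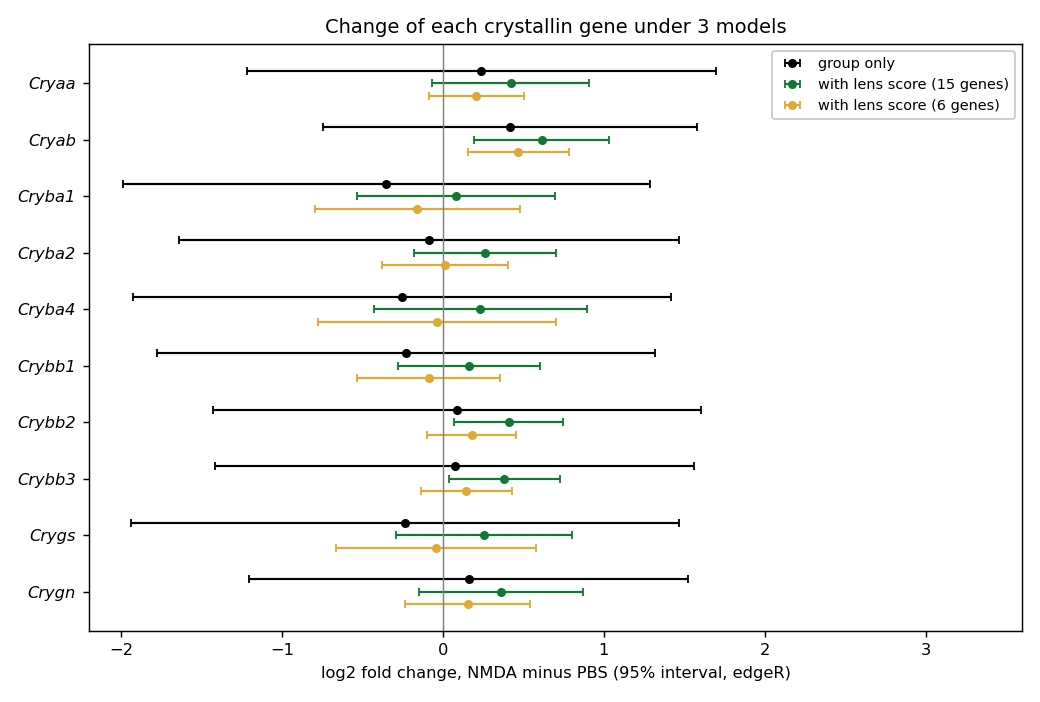
Log2 fold change (NMDA minus PBS) of the 10 crystallin genes with 95% intervals, from edgeR fits with the group alone (black), with the 15-gene lens score described below as a covariate (green) and with a 6-gene lens score (yellow). With the group alone all 10 intervals cross 0; with the 15-gene score the estimates run from 0.08 to 0.61, and Cryab is the 1 gene whose interval lies above 0 with both scores.

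The alpha crystallin Cryaa (ENSRNOG00000047175, chromosome 20, 9783605 to 9787349 in the deposited table's coordinates, whose build is not given in the sources used here; the table types this row as a pseudogene) had the highest level. Its scaled CPM in PBS 1 to PBS 6 were 1106, 340, 1467, 386, 624 and 1004, and in NMDA 1 to NMDA 6 were 32.5, 1105, 1619, 772, 1600 and 681. The library NMDA 1 lay below every other, and the other 11 libraries of the 2 groups were interleaved. The means were 821 ± 445 CPM (SD, n = 6) with PBS and 968 ± 606 CPM (SD, n = 6) with NMDA, a log2 fold change of 0.24 ± 0.66 (SE; 95% interval −1.22 to 1.69) with an edgeR adjusted p of 0.815.

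Cryab (ENSRNOG00000010524, chromosome 8, 51093441 to 51099157), the alpha crystallin also made in glia and muscle, read 221, 93.8, 394, 121, 203 and 276 CPM in PBS 1 to PBS 6. In NMDA 1 to NMDA 6 it read 32.2, 365, 442, 241, 467 and 199 CPM. Again NMDA 1 was lowest, and NMDA 3 and NMDA 5 were above the highest PBS library. The means were 218 ± 109 and 291 ± 166 CPM (SD, n = 6 each), the log2 fold change was 0.42 ± 0.53 (SE; −0.74 to 1.58), and the edgeR adjusted p was 0.582. Cryab's annotated range overlaps that of Hspb2, another small heat shock gene, by 1093 bases, and whether the counting used strand is not given in the sources used here.

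Among the beta crystallins, Crybb2 (ENSRNOG00000050023, chromosome 12, 43569747 to 43579671) had the highest level. It read 427, 81.6, 387, 74.7, 170 and 287 CPM in PBS 1 to PBS 6 and 11.5, 287, 398, 207, 478 and 133 CPM in NMDA 1 to NMDA 6. PBS 2, PBS 4 and NMDA 1 were the 3 lowest libraries, and the groups overlapped. The log2 fold change was 0.09 ± 0.69 (SE; −1.43 to 1.60), with an edgeR adjusted p of 0.939. Crybb3 (ENSRNOG00000047673), which lies 7626 bases from Crybb2 on chromosome 12 (43557103 to 43562120), read 165, 32.6, 152, 31.2, 68 and 107 CPM with PBS and 4.52, 106, 150, 88.9, 189 and 46.3 CPM with NMDA. The 2 neighbours kept nearly the same ratio, Crybb3 being 0.348 to 0.430 of Crybb2 in each library.

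Cryba1 (ENSRNOG00000008700, chromosome 10, 62608383 to 62614726), which encodes both the beta A3 and beta A1 proteins, read 312, 42.3, 251, 32.9, 89.6 and 208 CPM with PBS and 7.7, 150, 160, 97.6, 275 and 43.9 CPM with NMDA. The PBS libraries themselves spanned 32.9 to 312 CPM, a wider range than the distance between the group means of 156 ± 117 and 122 ± 95.2 CPM (SD, n = 6 each). Its fold change was the lowest of the 10, −0.35 ± 0.75 on the log2 scale (SE; −1.99 to 1.29), with an edgeR adjusted p of 0.753.

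Cryba2 (ENSRNOG00000017996, chromosome 9, 76447251 to 76450460) read 158, 28.5, 144, 23.7, 58 and 103 CPM with PBS and 3.49, 84, 121, 76.5, 164 and 35.6 CPM with NMDA. Cryba4 (ENSRNOG00000049770, chromosome 12, 44378737 to 44393221) read 219, 23.7, 109, 15.3, 60.5 and 113 CPM with PBS and 5.21, 77.4, 105, 67.1, 175 and 23.7 CPM with NMDA. Crybb1 (ENSRNOG00000047653, chromosome 12, 44369735 to 44383344) read 135, 21.8, 111, 16.6, 48.6 and 76.3 CPM with PBS and 3.22, 68.2, 77.3, 49.3, 126 and 25.3 CPM with NMDA. All 3 are structural proteins of lens fibres, and in each PBS 2, PBS 4 and NMDA 1 were low while PBS 1 and NMDA 5 were the highest of their groups. Their log2 fold changes were −0.09 ± 0.71, −0.25 ± 0.76 and −0.23 ± 0.71 (SE), with edgeR adjusted p of 0.941, 0.83 and 0.835. The annotated ranges of Crybb1 and Cryba4 overlap by 4608 bases, so their reads may be split between them.

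Crygs (ENSRNOG00000038355, chromosome 11, 78207170 to 78212273), the gamma crystallin of the mature lens cortex, read 150, 13, 68.9, 13, 40.1 and 77.8 CPM in PBS 1 to PBS 6. In NMDA 1 to NMDA 6 it read 2.64, 56.1, 64.5, 40.1, 127 and 18.7 CPM. The span across the 12 libraries, 56.8-fold, was the widest of the 10 genes. The log2 fold change was −0.23 ± 0.78 (SE; −1.93 to 1.47), with an edgeR adjusted p of 0.848. Crygn (ENSRNOG00000009226, chromosome 4, 10394020 to 10401543), a relative that joins features of beta and gamma crystallins, was the lowest of the 10: 6.9, 2.24, 13.1, 2.97, 4.56 and 6.76 CPM with PBS and 0.307, 7.55, 10.6, 6.22, 12.2 and 3.4 CPM with NMDA. The value in NMDA 1 rests on 8 reads. The groups overlapped, and the log2 fold change was 0.16 ± 0.62 (SE; −1.20 to 1.52), with an edgeR adjusted p of 0.87.

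**Figure D2:**
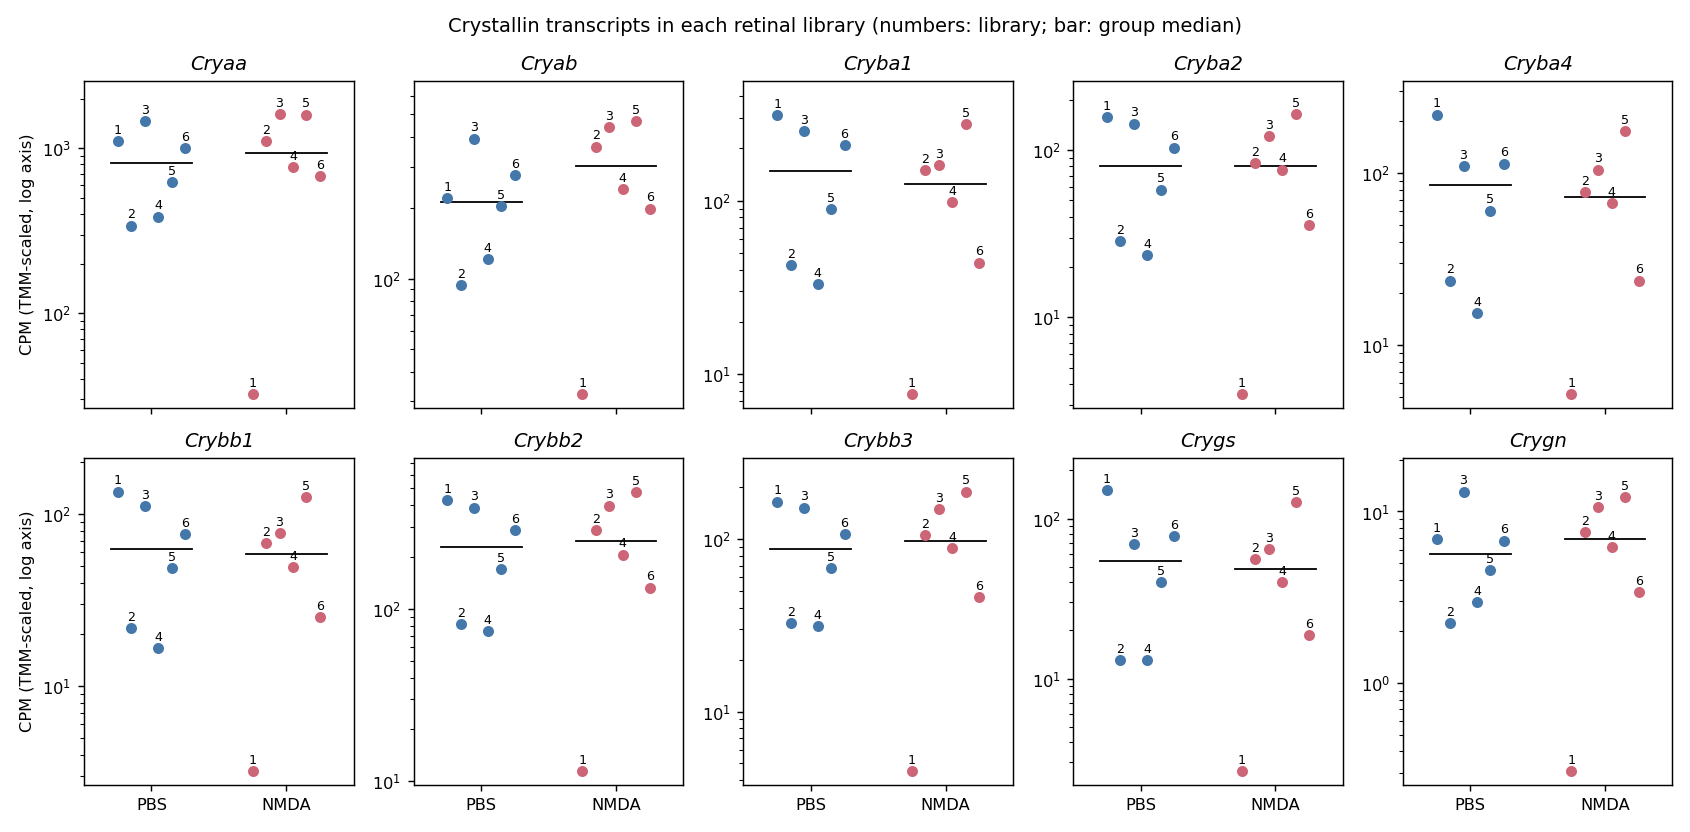
Scaled CPM (log axis) of each of the 10 crystallin genes in each library, with PBS in blue, NMDA in red, the library number beside each point and a bar at the group median. NMDA 1 is the lowest library for each gene, and the remaining libraries of the groups are interleaved.

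Per length, on the deposited FPKM scale (fragments per kilobase, scaled to the size of the library), the order by median over the 12 libraries was Cryaa (803), Crybb2 (334), Cryab (239), Cryba1 (161), Crybb3 (130), Cryba2 (119), Cryba4 (78.4), Crygs (70.2), Crybb1 (61) and Crygn (10.5). Cryaa was above Crybb2, and Crybb1 above Crygn, in 12 of 12 libraries. The steps in between held in 9 to 11 of 12 libraries, so those neighbours did not separate in each library. Crybb2 was above Cryab in 9 of 12.

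The 10 genes varied together from library to library. With each group's mean taken out, the Pearson r of log2 CPM over the 12 libraries was 0.892 (Cryaa with Cryba4) to 0.999 (Crybb2 with Crybb3) for the 45 pairs, with a median of 0.979; the pairs share libraries, so this is a description. Without NMDA 1 it was 0.829 (Cryab with Cryba4) to 0.998 (Cryba2 with Crybb3), with a median of 0.972. Together the 10 took 0.283, 0.0667, 0.305, 0.0708, 0.135 and 0.22% of all counts in PBS 1 to PBS 6. In NMDA 1 to NMDA 6 they took 0.0102, 0.235, 0.318, 0.167, 0.373 and 0.125%. Levels differed by 14.5-fold (Cryab) to 56.8-fold (Crygs) between the lowest and the highest library, and by 4.76-fold (Cryaa) to 14.3-fold (Cryba4) without NMDA 1.

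Other genes of the lens moved with them. A list of 17 lens genes other than crystallins was used, of which 15 were tested, and a lens score was made as the mean of their standardised log2 CPM. The score was 0.902, −0.549, 0.506, −0.318, 0.247 and 0.263 in PBS 1 to PBS 6 and −2.07, 0.235, 0.569, −0.0946, 0.612 and −0.307 in NMDA 1 to NMDA 6. A difference between the groups in the score was not detected by an exact two-sided permutation test (p = 0.539). The summed level of the list was 45.2 to 232 CPM with PBS and 10.7 to 233 CPM with NMDA, the lowest being NMDA 1. Of the list's defining fibre genes, Lim2 (a fibre cell membrane protein) had no read in NMDA 1, where 3 reads would be 0.115 CPM, and 3.29 to 18 CPM in the other 11 libraries. Mip (the lens water channel) was at 0.23 CPM in NMDA 1 and 3.71 to 35.9 CPM in the others. The beaded filament gene Bfsp2 was at 0.843 CPM in NMDA 1 and 3.76 to 18.1 CPM in the others. Bfsp1, its partner, was at 1.11 CPM there, close to PBS 2 (1.18 CPM), and was highest in PBS 1 (31.6 CPM). Gja3 (a lens gap junction protein) was at 0.0767 CPM in NMDA 1. Of the 15 tested genes, none rose and 1 fell, where 20.4% of all genes rose and 17.5% fell: Hsf4, a heat shock factor needed in lens, went from 4.39 ± 0.409 to 2.51 ± 0.487 CPM (SD, n = 6 each; log2 fold change −0.81 ± 0.14, edgeR adjusted p = 0.000605). Hsf4 varied little within the PBS group, where the list's sum ran from 45.2 to 232 CPM. Its level therefore did not follow that sum, and its fall is not a fall of the lens genes together.

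Over the 12 libraries each crystallin followed the lens score, with Pearson r of 0.905 (Cryab) to 0.976 (Crybb3) and Spearman rho of 0.804 to 0.965. Over these 10 relations the Benjamini-Hochberg adjusted permutation p was 1.43e-05 to 0.00044 for r and 2e-05 to 0.00246 for rho; 1e-05 is the smallest unadjusted p that 100000 permutations can give. With the 2 libraries farthest from the median score left out (NMDA 1 and PBS 2), r was 0.631 (Cryab) to 0.931 (Crygs). Within the 6 PBS libraries r was 0.797 to 0.964 (exact permutation p 0.00417 to 0.0542), and within the 6 NMDA libraries it was 0.969 to 0.999 (exact permutation p 0.00139 to 0.00278), or 0.917 to 0.996 without NMDA 1. Cryab had the lowest r in the full set, in the set without the 2 libraries and in the PBS group, where its exact permutation p was 0.0542, and the highest in the NMDA group (0.999).

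**Figure D3:**
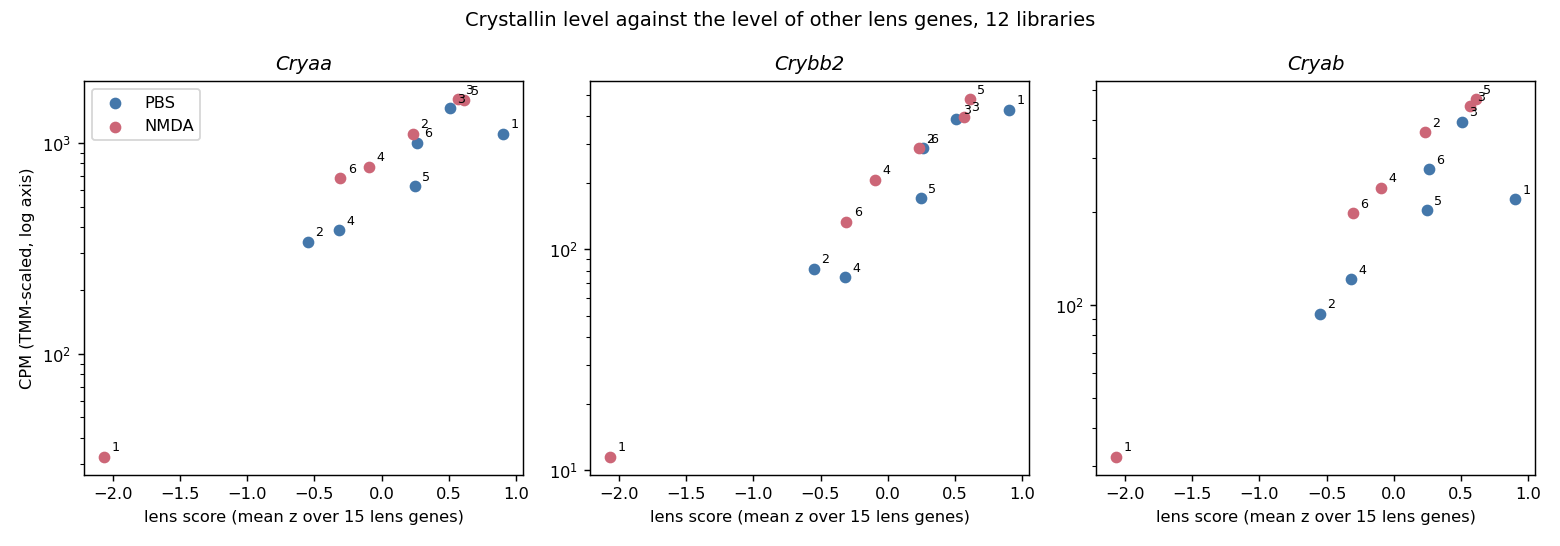
Scaled CPM (log axis) of Cryaa, Crybb2 and Cryab against the lens score, the mean standardised log2 CPM of 15 other lens genes, for the 12 libraries (PBS blue, NMDA red, numbered). Each gene is higher where the score is higher, with NMDA 1 at the low end (score −2.07).

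Outside the 10 crystallins, which were left out of the search and were in part closer to each other than any gene named here, the genes most like 3 of them were found by Pearson r of log2 CPM over the 12 libraries after taking out each group's mean, among 12355 protein-coding genes. For Cryaa they were Lim2 (r = 0.985), Gja3 (0.978), Cd24 (0.977), Bfsp2 (0.962) and Vit (0.954). For Crybb2 they were Grifin (0.990), Bfsp2 (0.984), Lim2 (0.964), Cd24 (0.963) and Lctl (0.960). For Cryab they were Cd24 (0.972), B3gnt5 (0.971), Sfrp1 (0.962), Prx (0.961) and Gja3 (0.960). Lim2, Gja3, Bfsp2, Grifin and Lctl are on the lens list. Without NMDA 1 the same genes had r of 0.740 (Vit) to 0.928 for Cryaa, 0.876 to 0.987 for Crybb2 and 0.872 to 0.919 for Cryab, and 3 of the 5 stayed among the first 5 for each.

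When the lens score was added to the fit as a covariate, 39.3% of all tested genes were called, 20.9% higher, and 1 of the 10 crystallins, Cryab. Its log2 fold change was then 0.61 ± 0.19 (SE; 0.19 to 1.03), edgeR adjusted p = 0.0249. The estimates of all 10 genes were above 0 in that fit, 0.08 to 0.61 with a median of 0.31, beside 0.01 over all genes, but without NMDA 1 they were 6 above and 4 below 0 with a median of 0.11. Crybb2 (0.41, adjusted p = 0.0549) and Crybb3 (0.38, adjusted p = 0.0755) came next and did not pass. Without NMDA 1 Cryab's value was 0.49 (edgeR adjusted p = 0.0378, with 38.5% of genes called and 19.7% higher).

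Cryab's result depended on single libraries. With each library left out in turn from the fit with the score, its log2 fold change was 0.49 to 0.73 and it was called in 7 of 12 fits. The call ended without PBS 2 (edgeR adjusted p = 0.0577), PBS 4 (0.0535), NMDA 2 (0.0514), NMDA 5 (0.0516) or NMDA 6 (0.0515). Without PBS 3, or without PBS 6, the number of crystallins called was 3, as Crybb2 and Crybb3 passed as well. Because Hsf4 is in the score and itself fell, a shorter score of 6 fibre genes, Mip and Lim2 among them, chosen after the data were seen, was also used: Cryab's value was 0.47 ± 0.14 (SE; 0.15 to 0.78), edgeR adjusted p = 0.0224, with 39.6% of genes called and 21.1% higher. In that fit Mip, a gene of the score itself, also passed, in the other direction (−0.75, adjusted p = 0.0401). In the fit with the longer score Grifin, a lens galectin in the score, passed as well (0.51, adjusted p = 0.0205). Crybb2 was at 0.18 (adjusted p = 0.293) with the shorter score.

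The proportions among the crystallins were compared within libraries. The total amount cancels in a ratio only if the make-up of the crystallin RNA does not change with that amount, which was not tested. The 10 genes' summed level was lowest in NMDA 1, at 103 CPM. Cryab per Cryaa, as a ratio of CPM, was 0.2, 0.276, 0.269, 0.315, 0.326 and 0.275 in PBS 1 to PBS 6. In NMDA 1 to NMDA 6 it was 0.991, 0.33, 0.273, 0.312, 0.292 and 0.292. NMDA 1, where Cryaa is at 32.5 and Cryab at 32.2 CPM, stood apart, and the other 11 libraries lay between 0.2 and 0.33. The log2 ratio differed between the groups by 0.42 (exact two-sided permutation p = 0.160), and by 0.13 without NMDA 1 (exact two-sided permutation p = 0.320). Cryab made up 31.2% of the 10 genes' counts in NMDA 1 and 7.62% in PBS 1, the lowest; Cryaa made up 31.5 to 56.3% across the libraries.

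The 6 beta crystallins, summed, were 1.28, 0.678, 0.787, 0.504, 0.793 and 0.892 of Cryaa in the PBS libraries and 1.1, 0.699, 0.624, 0.759, 0.879 and 0.452 of it in the NMDA libraries. The gamma A to F genes (no row carries the name Cryge, so the sum holds A, B, C, D and F), which lie outside the 10 and are strongest in young lens fibres, moved over a wider range. Their summed level was 476, 11.8, 37.5, 4.35, 40.6 and 60.7 CPM in PBS 1 to PBS 6 and 7.78, 46.8, 56.5, 30.1, 186 and 9.71 CPM in NMDA 1 to NMDA 6. PBS 1 and NMDA 5 were the highest of their groups. Relative to Cryaa, PBS 1 was at 0.431 and the other PBS libraries at 0.0113 to 0.065. None of the 6 gamma A to F rows passed (Cryga has 2 rows; near-identical genes can share reads), with a median log2 fold change of −0.96. That value turned with 1 library: without PBS 1 the median was 0.80 and without NMDA 5 it was −1.85, and none passed in either.

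**Figure D4:**
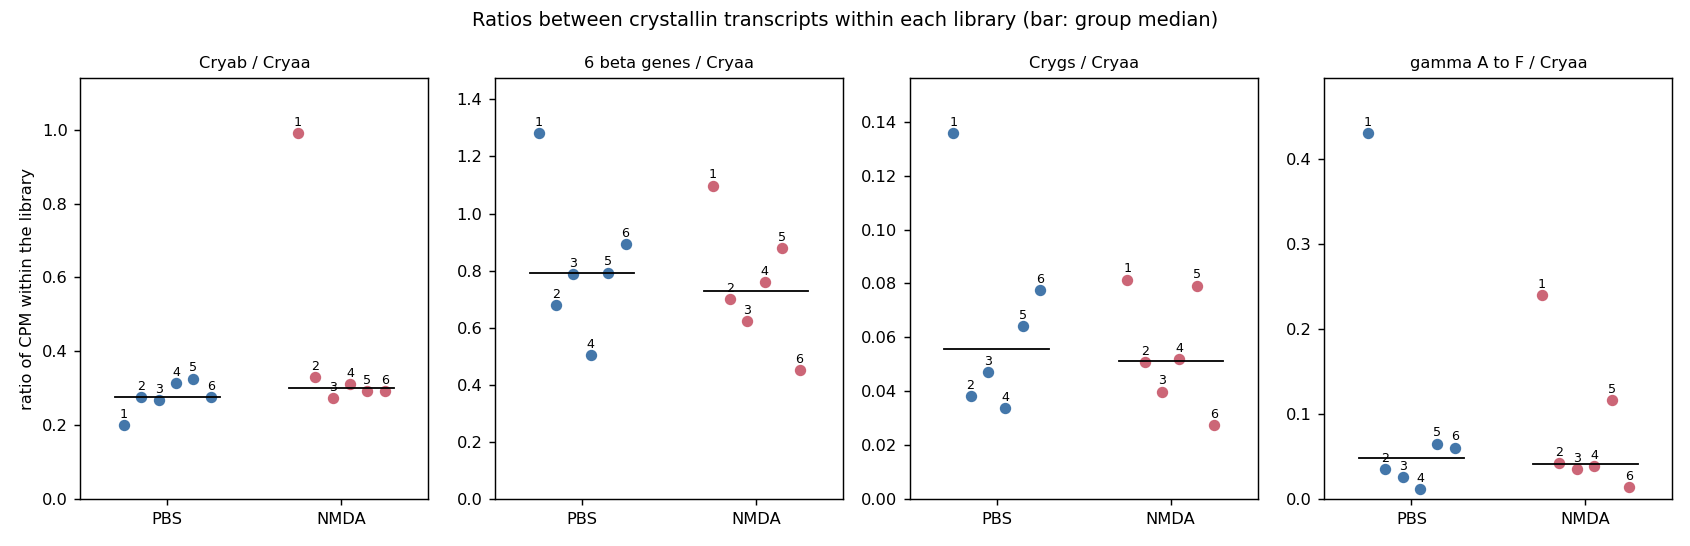
Ratios of CPM to Cryaa in each library (linear axes from 0; numbers are libraries, bars are group medians): Cryab, the summed beta crystallins, Crygs and the summed gamma A to F genes. NMDA 1 stands apart for Cryab (0.991) and PBS 1 for the gamma A to F genes (0.431).

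Levels of other tissues next to the retina were read for comparison; their part in the crystallin values was not tested. The 13 tested genes of pigment epithelium, ciliary body and iris summed to 177 to 574 CPM with PBS and 45.3 to 776 CPM with NMDA; 0 rose and 4 fell, beside 20.4% higher and 17.5% lower over all genes, and the median log2 fold change of the 13 was 0.05. NMDA 1 was the lowest library, and Tyrp1, a melanin enzyme, was highest in PBS 5 (140 CPM) and NMDA 3 (170 CPM). Of the 4 that fell, Rpe65, the visual cycle isomerase, fell from 10 ± 3.08 to 3.12 ± 1.59 CPM (SD, n = 6 each; log2 fold change −1.67 ± 0.31, edgeR adjusted p = 0.00119), and Ttr, the thyroxine carrier, fell by 1.14 (± 0.27, SE; adjusted p = 0.00589). Cornea genes (4 tested, none passed) summed to 4.39 to 46.5 CPM with PBS and 2.49 to 62.7 CPM with NMDA, NMDA 1 again being the lowest. Muscle genes (7 tested) summed to 10.8 to 23.1 and 10.8 to 30.9 CPM, and 1 of them, Acta1, was called lower (edgeR adjusted p = 0.00646), at −0.48 ± 0.12 in log2 units. Gja1, a gap junction gene of astrocytes and lens epithelium, was at 4.71 CPM in NMDA 1 and 65.9 to 323 CPM in the others.

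Glial genes were read for the same reason. Gfap, the intermediate filament of reactive glia, rose from 150 ± 65 to 424 ± 181 CPM (SD, n = 6 each; log2 fold change 1.50 ± 0.35, edgeR adjusted p = 0.00558). Glul, the glutamine synthetase of Müller glia, fell by 1.05 on the log2 scale (± 0.15, SE; adjusted p = 0.000213). Vim, a filament gene of Müller glia and of lens, rose by 1.46 ± 0.16 (SE; adjusted p = 7.54e-05). Over all genes 20.4% were higher and 17.5% lower; of 11 tested Müller glia genes 2 rose and 6 fell, of 6 astrocyte genes 1 rose and 1 fell, and of 6 oligodendrocyte genes tested 1 rose and 2 fell, with Opalin at 0 in every library. Of the latter, Cnp rose by 0.86 ± 0.10 (SE; adjusted p = 5.78e-05) and Mbp fell by 0.62 (± 0.19; adjusted p = 0.0207).

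Of the 5 tested small heat shock genes, the family of Cryaa and Cryab, 1 rose and 1 fell, with a median of 0.21. With so few genes, that count is near the 37.9% called over all genes. Hspb1, whose protein is induced by stress, rose from 4.35 ± 2.24 to 8.15 ± 2.15 CPM (SD, n = 6 each; log2 fold change 0.90 ± 0.30, edgeR adjusted p = 0.0328). That call ended when any 1 of PBS 2, PBS 3, PBS 4, PBS 6, NMDA 2, NMDA 3 or NMDA 6 was left out, and the adjusted p reached 0.0707 over all alternatives. Hspb6 fell from 36.1 ± 2.67 to 29 ± 3.48 CPM (log2 fold change −0.32 ± 0.08, adjusted p = 0.00639). Hspb2, the neighbour of Cryab, had a log2 fold change of 0.53 ± 0.33 (adjusted p = 0.228) and 0.66 with the lens score in the fit (adjusted p = 0.0156). Hspb8 was at −0.41 ± 0.17 (adjusted p = 0.0791).

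Of 27 heat shock response and chaperone genes tested, 8 rose and 1 fell, with a median of 0.10, beside 20.4% higher and 17.5% lower over all genes. Bag3, a co-chaperone of small heat shock proteins, rose from 6.2 ± 1.06 to 13.5 ± 2.91 CPM (SD, n = 6 each; log2 fold change 1.12 ± 0.15, edgeR adjusted p = 0.000178), with groups that did not overlap. Hspe1 and Hspd1, the mitochondrial chaperonins, rose by 0.49 ± 0.07 and 0.43 ± 0.07 (adjusted p = 0.00019 and 0.000645), and Hspa5, the chaperone of the endoplasmic reticulum, by 0.60 ± 0.10 (adjusted p = 0.000472).

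Of 19 tested transcription factors known to act on crystallin promoters, 5 rose and 5 fell, with a median of 0.03, beside the same 20.4% and 17.5%. Sox2 rose from 36.4 ± 2.65 to 61.4 ± 10.1 CPM (SD, n = 6 each; log2 fold change 0.75 ± 0.10, edgeR adjusted p = 0.000179). Tfap2a fell by 0.64 on the log2 scale (± 0.12, SE; adjusted p = 0.0013), and Hsf4 fell as given above. Pax6, a regulator of eye development, fell by 0.23 (± 0.07; adjusted p = 0.0193).

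Among the enzymes that carry a crystallin name, which are unrelated to the lens families, 1 of 4 rose and 2 fell, where 20.4% of all genes were higher and 17.5% lower. Crym, a thyroid hormone binding protein, rose from 346 ± 83.2 to 658 ± 122 CPM (SD, n = 6 each; log2 fold change 0.93 ± 0.17, edgeR adjusted p = 0.00109), and its groups did not overlap. Cryl1 fell by 0.52 on the log2 scale (± 0.14, SE; adjusted p = 0.0102). Cryzl1 fell by 0.17 (± 0.06, SE; adjusted p = 0.0359), a call that ended in 14 of 27 alternatives. Crybg1, Crybg2 and Crybg3, larger proteins with the beta-gamma fold, had log2 fold changes of 0.23, −0.25 and 0.01, and none passed. Crybg2 was at 19.1 to 37.8 CPM in 6 libraries and 0.132 to 0.532 CPM in the other 6, of both groups.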

How the data were processed

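RNA-seq of rat retina was compared in 6 PBS and 6 NMDA libraries. The deposited table holds gene counts and FPKM values; per the submitters' processing notes Bowtie2, RSEM 1.3.1 and DESeq2 1.4.5 were used. The counts are whole numbers as deposited, and the FPKM values were made by the authors, so FPKM served only for levels per length and as an alternative. Build, annotation and strand setting are not given in the sources used here.

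Counts were filtered with filterByExpr (minimum count 10, total 15), scaled by TMM (0.976 to 1.03) and fitted by group in R 4.3.3 with edgeR 4.0.16, using its robust quasi-likelihood F test, adjusted over all 16260 genes by Benjamini-Hochberg. limma 3.58.1 and DESeq2 1.42.0 gave alternatives. CPM are counts over the TMM-scaled library size; log2 CPM used a prior count of 2. SE is the fold change over the root of F. Each library comes from a separate rat per the labels, so the tests between groups use the spread between libraries. Differences between rats, dissection and library preparation cannot be told apart in that spread. Intervals cover 95%. Promoters are RefSeq's.

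The genes and lists were chosen with earlier results of these data known. Named genes are all 10 crystallins, up to 4 passing genes per other list by smallest adjusted p (fewer are given where they add little to the crystallins), and a set of fixed markers including Gfap, Glul, Mip and Hspb1; Pax6, Grifin, Gja1 and the Crybg genes were named after their values were seen. Some genes that the rule names are not reported here.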

Additional observations from a re-analysis of the deposited data

Results flagged for a closer look

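Of 36 group checks for a library far from the rest of its group, 7 found one. The nominal rate is about 1 in 20 for normally distributed values. Several measures were skewed sums or ratios and some share genes, so 7 of 36 cannot be set against that rate. The lens score of NMDA 1 was −2.07, against −0.307 to 0.612 in the other NMDA libraries. The score of 6 pigment genes was 1.65 in PBS 5, against −0.194 to −0.0164 in the other PBS libraries, and 2.03 in NMDA 3, against −1.48 to −0.244 in the other NMDA libraries. The ratio of Cryab to Cryaa was 0.991 in NMDA 1, against 0.273 to 0.33 in the others of its group. The summed gamma A to F crystallins were 0.431 of Cryaa in PBS 1, against 0.0113 to 0.065 in the other PBS libraries. Their summed level was 476 CPM in PBS 1, against 4.35 to 60.7 CPM in its group, and 186 CPM in NMDA 5, against 7.78 to 56.5 CPM in its group.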

How the results depend on the processing

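The count of crystallins called was 0 in every fit without the lens score, and 1 (Cryab) with the 15-gene score, with it and without NMDA 1, with the 6-gene score, and with that score and without NMDA 1. Adding the 6-gene score with and without NMDA 1, leaving out each library in turn from the fit with the lens score, leaving out NMDA 1 from the correlations, leaving out each library for the gamma A to F median, and leaving out PBS 1 and NMDA 1 together were chosen after seeing the data. The replicate numbers did not pair the libraries (correlations of deviations −0.19 to 0.15, 2 of 6 over 0.1, 1 of 6 best with its own number); with a replicate block 5593 genes and 0 crystallins were called, and Crygs was at 0.0080. Leaving out 1 library gave 5287 to 6629 genes called. The sign of a crystallin's uncalled fold change turned often. With the lens score Cryba1 was at 0.081, Cryba2 0.26, Cryba4 0.23, Crybb1 0.16 and Crygs 0.25; without PBS 1 and NMDA 1 the same 5 were at 0.22, 0.43, 0.47, 0.33 and 0.52. On log2(FPKM + 1) and log2(FPKM + 0.1), Cryaa was at −0.18 and −0.19, Crybb2 −0.19 and −0.20, Crybb3 −0.21 and −0.24, and Crygn −0.026 and −0.17. The added 1 or 0.1 understates folds of low genes, but Cryaa, Crybb2 and Crybb3 were far above it (medians of 803, 334 and 130 FPKM). Cryba2 was also at 0.019 with limma voom, 0.041 with the lens score and without NMDA 1, and 0.014 with the 6-gene score. Leaving out 1 library gave Cryaa 0.03 to 0.48, Cryab 0.23 to 0.67, Cryba1 −0.76 to −0.03, Cryba2 −0.42 to 0.18, Cryba4 −0.69 to 0.23, Crybb1 −0.61 to 0.090, Crybb2 −0.20 to 0.34, Crybb3 −0.23 to 0.32, Crygs −0.73 to 0.28 and Crygn −0.094 to 0.52, and Cryab in the fit with the lens score 0.49 to 0.73; the cause was not tested. Crygn had no value under the filter of 10 CPM.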
